A study of Mus musculus with 10 samples.

Results

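The genes described here encode receptors, or receptor chains, for colony-stimulating factors, interleukin 3, interleukin 6 and interferons: Csf1r, Csf2ra, Csf2rb, Csf2rb2, Il3ra, Il6ra, Il6st, Ifngr1, Ifnar1 and Ifnar2. They were chosen by name, and each was found by matching the Ensembl identifier of its row to the GENCODE M21 annotation of mm10. All 10 had a row, of 48526 rows in the table. RNA-seq read counts were given for 10 mouse libraries labelled as endothelial cells of the aorta, isolated by FACS. In 5 of them the animals are labelled as having undergone acute mental stress, applied for 3 h on each of 3 days in a row, and in the other 5 as non-stressed. The strain of every animal in both groups is labelled ApoE, so all groups share it, and no further genotype, age or sex is given. Nothing says whether a replicate was 1 animal or a pool, so the p-values below measure the spread between these samples, which may be technical.

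These receptors tell a cell which growth factors and inflammatory signals are around it. The CSF1 receptor is a tyrosine kinase that monocytes and macrophages need to survive. The receptors for GM-CSF and interleukin 3 pair a ligand-specific alpha chain with a beta chain that carries the signal, and the mouse, unlike humans, has a second beta chain gene, Csf2rb2, whose product serves interleukin 3 only. Interleukin 6 binds Il6ra, which then engages gp130, the shared chain encoded by Il6st. The interferon gamma receptor joins Ifngr1 to Ifngr2, and the type I interferon receptor joins Ifnar1 to Ifnar2. All but the CSF1 receptor lack a kinase of their own and signal through JAK kinases and STAT transcription factors. In the artery wall, endothelial cells are known for gp130 and interferon receptors, whereas the CSF1 receptor is a textbook marker of macrophages.

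The label of the libraries was checked against marker genes. The 12 endothelial markers summed to 34.5 to 91.2 CPM (reads of a gene per 1000000 reads in the library), and 3 of them, Tek, Emcn and Cldn5, had 0 reads in every library. The 11 monocyte and macrophage markers summed to 19619 to 31865 CPM, and none of them was at 0 throughout. The defining endothelial markers therefore did not bear out the label, in either group, and the receptor levels below are those of libraries so labelled. Libraries held 18020220 to 38237346 reads, and a gene with 0 reads could be present at up to 0.0785 to 0.166 CPM. In 4 libraries, replicates 1 and 5 of each group, the X-inactivation transcript Xist was counted and the Y-linked gene Ddx3y had 0 reads. The other 6 had no Xist reads and over 100 of Ddx3y.

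No change between stressed and non-stressed libraries was detected for any of the 10 receptors. With edgeR's quasi-likelihood test and Benjamini-Hochberg adjustment over 13334 genes, 0 of 10 passed, against 0.0075% of all genes tested, a single gene. At an unadjusted p under 0.05 the count was again 0 of 10, against 5.53% of all genes, and DESeq2 and limma-voom likewise called 0 of 10. For no receptor did the stressed libraries lie all above or all below the non-stressed ones, which was so for 1.11% of all genes. The estimate was higher in stressed libraries for 4 receptors and lower for 6, with a median log2 fold change of -0.04, beside 0.004 over all genes tested. In bulk samples, fewer cells of a type and less RNA per cell cannot be told apart.

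**Figure D1:**
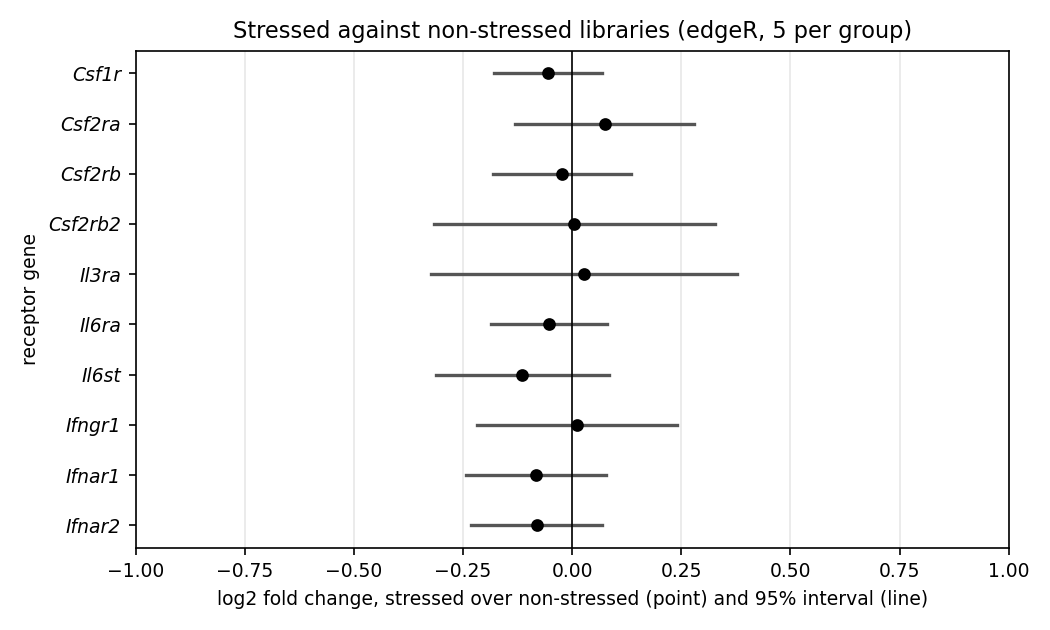
Log2 fold change of each receptor gene, stressed over non-stressed libraries (point), with its 95% interval (line), from edgeR on 5 libraries per group. Every interval includes 0, the narrowest being that of Csf1r and the widest that of Il3ra.

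Csf1r, the receptor tyrosine kinase for CSF1 and interleukin 34, was the most abundant of the 10 and ranked 20 of all rows by mean CPM. The gene (ENSMUSG00000024621) lies on chromosome 18 from 61100598 to 61132149, plus strand, in mm10. In non-stressed replicates 1 to 5 it stood at 2621, 2583, 2766, 2423 and 2368 CPM, and in stressed replicates 1 to 5 at 2600.4, 2544, 2370.3, 2323 and 2411 CPM. The groups overlapped almost throughout, with the highest value in non-stressed replicate 3 and the lowest in stressed replicate 4. The log2 fold change was -0.05 (SE 0.06, 95% interval -0.18 to 0.07, adjusted p = 0.961). Its values differed by no more than 1.19-fold over the 10 libraries, a coefficient of variation of 5.72%. Of its exon bases, 873 (15.1%) overlap Hmgxb3 on the other strand, and whether strand was used in counting is not given in the sources used here. Hmgxb3 was counted at 9588 reads in all, against 679637 for Csf1r.

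The receptors for GM-CSF and interleukin 3 share the beta chain encoded by Csf2rb. In non-stressed replicates 1 to 5, Csf2rb was counted at 553, 456, 499, 458 and 473 CPM, and in stressed replicates 1 to 5 at 483, 504, 497, 414 and 495 CPM. The range of the stressed libraries was set by replicate 4, the lowest of all 10, while the other 4 lay inside the non-stressed range. For the shared beta chain the log2 fold change was -0.02 (SE 0.07, 95% interval -0.18 to 0.14, adjusted p = 0.993). Csf2ra, the alpha chain that binds GM-CSF, stood at 682, 595, 598, 748 and 700.3 CPM in the non-stressed and at 567.9, 638, 759, 788 and 735 CPM in the stressed libraries, in order of replicate. Replicates 4 of both groups were high, and the lowest value was that of stressed replicate 1. Between the groups Csf2ra had a log2 fold change of 0.07 (SE 0.10, 95% interval -0.13 to 0.28, adjusted p = 0.969). Csf2ra (ENSMUSG00000059326) lies on chromosome 19 from 61223957 to 61228429, minus strand, and none of its exon bases overlap another gene.

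Il3ra, the alpha chain that binds interleukin 3, had the lowest CPM of the 10, with 38, 47.9, 43.2, 54.5 and 58.9 CPM in the non-stressed and 37.8, 39.7, 46.7, 55.4 and 66.5 CPM in the stressed replicates. In both groups replicate 1 was lowest and replicate 5 highest, so that libraries of the same group differed far more than the group means. Its log2 fold change was 0.03 (SE 0.16, 95% interval -0.32 to 0.38, adjusted p = 0.998), the widest interval of the 10. Il3ra (ENSMUSG00000068758) lies on chromosome 14 from 14346275 to 14356011, plus strand.

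Csf2rb2 encodes the second beta chain of the mouse, specific to interleukin 3. It was counted at 114, 88.6, 105, 83.9 and 98.2 CPM in non-stressed replicates 1 to 5 and at 130.3, 83.3, 82.0, 73.8 and 120.2 CPM in stressed replicates 1 to 5. Stressed replicates 1 and 5 were the highest of all 10 libraries, and stressed replicates 2, 3 and 4 the lowest. The group means were nearly equal, with a log2 fold change of 0.01 (SE 0.15, 95% interval -0.32 to 0.33, adjusted p = 0.999). The high stressed libraries are those with Xist. Between group means of normalized log2 CPM, stressed minus non-stressed, Csf2rb2 differed by 0.26 in the 4 libraries with Xist and by -0.21 in the 6 with Ddx3y. The test of that difference gave a log2 term of -0.47 (SE 0.18, unadjusted p = 0.0250, adjusted p = 0.999997 over all genes, edgeR). With Ddx3y in the fit as a covariate the stressed against non-stressed value was -0.03. Of the 10 receptors, 5 (Csf2rb, Il6ra, Il6st, Ifngr1 and Ifnar2) had the same sign in both sets of libraries, and Csf2rb2 was the 1 receptor for which every library of a set went opposite to the other set. The share of all genes tested with either pattern was not counted, so neither count is read as a trait of the receptors.

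The beta chain genes lie head to head on chromosome 15, 20030 bases apart, Csf2rb (ENSMUSG00000071713) from 78325752 to 78353847 on the plus strand and Csf2rb2 (ENSMUSG00000071714) from 78282507 to 78305721 on the minus strand. Their coding sequences, 2688 and 2634 bases in GENCODE M21, were aligned because near-identical copies can share reads. Of 2628 bases aligned without a gap, 2503 were identical (95.2%). The copies are most different in the following window of 100 bases, coding bases 298 to 397 of Csf2rb (exon 5, chr15:78338887-78338986, plus strand, mm10) and 301 to 400 of Csf2rb2 (exon 4, chr15:78294345-78294444, minus strand), where capitals mark the 16 positions that differ.
Csf2rb: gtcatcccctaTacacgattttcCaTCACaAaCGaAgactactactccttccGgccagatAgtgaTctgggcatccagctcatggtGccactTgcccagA
Csf2rb2: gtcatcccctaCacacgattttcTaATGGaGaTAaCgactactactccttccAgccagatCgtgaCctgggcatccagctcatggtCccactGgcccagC
The longest stretch with no difference runs over 242 bases, coding bases 2083 to 2324 of both (Csf2rb exon 15, chr15:78348577-78348818, plus strand, and Csf2rb2 exon 14, chr15:78284630-78284871, minus strand).
Csf2rb and Csf2rb2: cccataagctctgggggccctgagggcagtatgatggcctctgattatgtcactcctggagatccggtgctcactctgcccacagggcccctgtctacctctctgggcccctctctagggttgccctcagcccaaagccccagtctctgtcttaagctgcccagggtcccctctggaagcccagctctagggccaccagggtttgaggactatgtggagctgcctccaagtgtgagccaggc
A read from the window that differs can be placed, and one from within the identical stretch cannot. Of all windows of 50 bases in the longest coding transcript, 18.4% for Csf2rb and 19.5% for Csf2rb2 also occur in another gene, nearly all of them in the other copy. Of windows of 100 bases, 6.96% and 7.20% do. The read length is not given in the sources used here, and how such reads were counted is not known, so the split between the copies is uncertain. For Csf2ra, Il3ra, Il6st and Ifngr1 the share was 0%.

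Within a library, the ratio of chains does not depend on sequencing depth. Reads of Csf2rb2 were 0.165 to 0.270 times those of Csf2rb. In the non-stressed libraries this ratio was 0.206, 0.194, 0.211, 0.183 and 0.208, and in the stressed libraries 0.270, 0.165, 0.165, 0.178 and 0.243. The stressed libraries spread over a wider range than the non-stressed ones and enclosed it, with both Xist libraries above and the other 3 below. On the log2 scale the groups differed by -0.001 (exact two-sided permutation test, p = 0.992). Reads of Csf2ra were 1.18 to 1.90 times those of Csf2rb and those of Il3ra 0.0687 to 0.134 times, with log2 differences between the groups of 0.09 (exact permutation p = 0.579) and 0.03 (exact permutation p = 0.897). Adjusted over the 7 ratios tested, every p was 0.992.

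**Figure D2:**
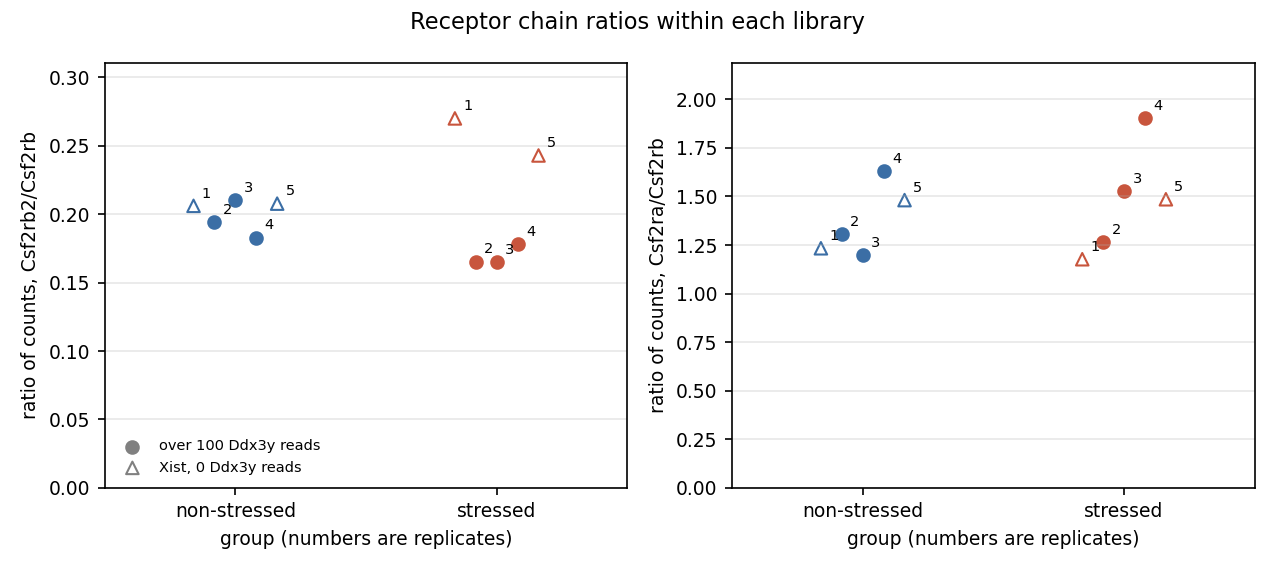
Ratio of read counts of Csf2rb2 to Csf2rb (left) and of Csf2ra to Csf2rb (right) in each library, by group, with replicate numbers; triangles are libraries with Xist and circles those with over 100 Ddx3y reads. The ratio of Csf2rb2 to Csf2rb reached 0.270 and 0.243 in stressed replicates 1 and 5 and lay between 0.165 and 0.211 in the other 8 libraries.

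Promoters of 8 of the 10 genes were found in RefSeq (GRCm38.p6), and the 250 bases before each start site were searched on both strands for 3 motifs. GAGGAAG, a form of the site of the myeloid factor PU.1, was present in Csf2ra and Csf2rb2, and in 10.6% of 32851 promoters searched. TTCNNNGAA, the form of the gamma-activated site that STAT factors bind, was present in Csf2rb2 and Ifnar2, and in 7.02% of all. A form of the interferon-stimulated response element, GAAA followed by any 2 bases and another GAAA, was in none of the 8 and in 2.98% of all. The promoters of Csf2ra (chr19:61228419-61228668, minus strand) and Csf2rb2 (chr15:78305722-78305971, minus strand) are shown because they hold the matches nearest to a start site, with the matches in capitals.
Csf2ra: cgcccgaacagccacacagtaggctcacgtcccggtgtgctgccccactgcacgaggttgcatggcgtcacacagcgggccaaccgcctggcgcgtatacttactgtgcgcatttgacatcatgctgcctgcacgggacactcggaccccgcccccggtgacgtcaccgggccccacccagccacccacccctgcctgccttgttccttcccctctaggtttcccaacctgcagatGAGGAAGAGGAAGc
Csf2rb2: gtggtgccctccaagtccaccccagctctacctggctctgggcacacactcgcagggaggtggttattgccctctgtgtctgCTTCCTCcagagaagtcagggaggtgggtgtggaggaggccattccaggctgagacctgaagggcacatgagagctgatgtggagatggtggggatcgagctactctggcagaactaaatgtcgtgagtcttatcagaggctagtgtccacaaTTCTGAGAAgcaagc
In Csf2ra the motif GAGGAAG occurs in tandem, beginning 14 and 8 bases before the RefSeq start site and sharing a G. GENCODE M21 starts this minus-strand gene further upstream, at base 61228429. By that annotation the match nearer the RefSeq start site lies inside the gene and the other spans its start. In Csf2rb2 the reverse complement of GAGGAAG begins 168 bases before the start site and a gamma-activated site 15 bases before it. The Csf2ra window has 64.8% G and C and 17 CG dinucleotides, and that of Csf2rb2 56.4% and 3. A match is a description of these letters and not evidence that a factor binds there.

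Interleukin 6 signals through Il6ra and gp130. Il6ra, on chromosome 3 from 89864059 to 89913196, minus strand (ENSMUSG00000027947), stood at 751, 763, 781, 851 and 863 CPM in non-stressed replicates 1 to 5 and at 731, 814, 762, 758 and 786 CPM in stressed replicates 1 to 5. Non-stressed replicates 4 and 5 were the highest, and stressed replicate 1 the lowest. The log2 fold change was -0.05 (SE 0.06, 95% interval -0.19 to 0.08, adjusted p = 0.964). Il6st, on chromosome 13 from 112464070 to 112510086, plus strand (ENSMUSG00000021756), stood at 205, 213, 235, 214 and 227 CPM in the non-stressed and 212, 251, 175, 188 and 183 CPM in the stressed replicates. Stressed replicates 3, 4 and 5 lay below all non-stressed libraries, whereas stressed replicate 2 was the highest of all 10. The log2 fold change, -0.11 (SE 0.09, 95% interval -0.31 to 0.08, adjusted p = 0.950), was the furthest from 0 among the receptors. It was -0.21 without stressed replicate 2, the 1 setting in which a receptor reached an unadjusted p under 0.05 (0.0189, adjusted p = 0.867, edgeR). Reads of Il6ra were 3.24 to 4.36 times those of Il6st, with a log2 difference between the groups of 0.07 (exact permutation p = 0.484).

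The interferon gamma receptor chain Ifngr1, which binds the ligand, was counted at 960.5, 872, 832, 659 and 630.2 CPM in non-stressed replicates 1 to 5 and at 868, 836, 839, 720.4 and 708 CPM in stressed replicates 1 to 5. Replicates 4 and 5 were low in both groups, and the stressed libraries all lay inside the range of the non-stressed ones. Group means differed by a log2 fold change of 0.01 (SE 0.11, 95% interval -0.22 to 0.24, adjusted p = 0.998). Its partner Ifngr2, the chain that brings JAK2 to the complex, stood at 218 to 287 CPM over the 10 libraries. Reads of Ifngr1 were 2.29 to 4.4 times those of Ifngr2, the lowest in non-stressed replicate 4 and the highest in non-stressed replicate 1, and the groups differed by -0.01 on the log2 scale (exact permutation p = 0.944). Ifngr1 (ENSMUSG00000020009) lies on chromosome 10 from 19591949 to 19610229, plus strand.

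The type I interferon receptor genes are neighbours on chromosome 16, both on the plus strand: Ifnar2 (ENSMUSG00000022971) from 91372783 to 91405589 and Ifnar1 (ENSMUSG00000022967) from 91485238 to 91507441, with Il10rb, an interleukin 10 receptor chain, between them. Ifnar1 stood at 212, 211, 224, 252.5 and 204 CPM in the non-stressed and 229.5, 205, 197, 206 and 202 CPM in the stressed replicates. In each group 1 library was above the rest, replicate 4 of the non-stressed and replicate 1 of the stressed. The log2 fold change was -0.08 (SE 0.08, 95% interval -0.24 to 0.08, adjusted p = 0.955). Ifnar2 stood at 169.5, 158, 175, 177 and 168 CPM in the non-stressed and 164, 144, 155, 172 and 164 CPM in the stressed replicates. It varied little, with a coefficient of variation of 6.12% over all libraries and the lowest value in stressed replicate 2. For Ifnar2 the log2 fold change was -0.08 (SE 0.07, 95% interval -0.23 to 0.07, adjusted p = 0.950). Of its exon bases, 315 (9.46%) overlap another protein-coding gene annotated on the same strand, which was counted at 0 reads. How reads in that overlap were counted is not known, so the level of Ifnar2 and its ratio to Ifnar1 are uncertain. Reads of Ifnar1 were 1.2 to 1.43 times those of Ifnar2 and those of Csf1r 4.74 to 5.66 times those of Csf2rb, the ratios that varied least between libraries. The groups differed by 0.002 on the log2 scale for Ifnar1 to Ifnar2 (exact permutation p = 0.960) and by -0.03 for Csf1r to Csf2rb (exact permutation p = 0.643).

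Levels can be compared between genes only per length, and here CPM was divided by the kb of annotated exon of each gene. Csf1r was highest, at 433 ± 24.8 CPM per kb (SD over 10 libraries), above every other receptor in all 10 libraries. Ifngr1 at 278 ± 37.4 and Csf2ra at 237 ± 27.0 CPM per kb followed, and their ranges overlapped, with Ifngr1 the higher in 6 of 10 libraries. Il6ra at 90.9 ± 5.05, Csf2rb at 66.4 ± 5.04, Ifnar2 at 49.5 ± 3.03 and Ifnar1 at 36.1 ± 2.81 CPM per kb came next, each above the one after it in all 10 libraries. Csf2rb2 at 20.7 ± 3.97, Il6st at 18.9 ± 2.15 and Il3ra at 16.5 ± 3.27 CPM per kb were lowest, and their order was not the same in every library. The signalling chain of a receptor was thus lower per kb than its alpha chain for GM-CSF and interleukin 6. For interleukin 3 the shared chain Csf2rb was higher than Il3ra, whereas the ranges of Csf2rb2 and Il3ra overlapped. The split of reads between the beta chains is uncertain. With the length of the longest coding transcript in place of all annotated exons, the mean of Csf2rb (98.6 CPM per kb) stood above that of Il6ra (91.0), and that of Ifnar1 (54.8) beside that of Ifnar2 (54.1). The ranges of both pairs then overlapped, as did those of Il6st, Il3ra and Csf2rb2.

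**Figure D3:**
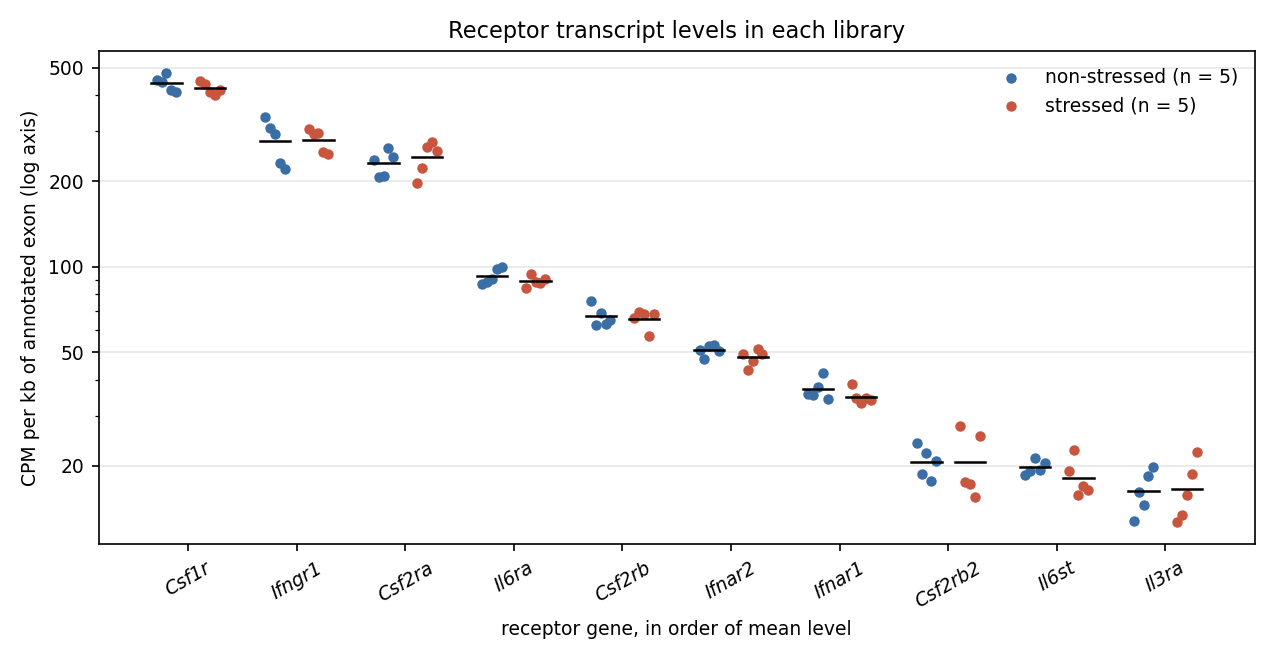
Level of each receptor gene in CPM per kb of annotated exon (log axis), in the order of the mean; points are libraries, with replicates 1 to 5 from left to right, and bars are group means. Csf1r lies above all others in every library, and the groups overlap for all 10 genes.

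The receptors differed in how much they varied between libraries. The coefficient of variation of CPM over the 10 libraries ran from 5.55% for Il6ra and 5.72% for Csf1r to 19.2% for Csf2rb2 and 19.9% for Il3ra. Set against genes of like expression, the dispersion that edgeR estimated for Csf2rb2 and Il3ra stood at percentiles 93.8 and 91.7, that of Ifngr1 at 84.6, and those of Ifnar2 and Csf1r at 11.6 and 13.3.

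Some of these differences between libraries ran across both groups. Il3ra and Ifngr1 went in opposite directions over the 10 libraries (Pearson r = -0.83, permutation p = 0.00378; Spearman rho = -0.76, permutation p = 0.0149), as did Csf1r and Csf2ra (r = -0.83, permutation p = 0.00437; rho = -0.78, permutation p = 0.0104). Without the 2 libraries farthest from the median of the gene named first, r was -0.90 and -0.78. In the 6 libraries with Ddx3y it was -0.77 and -0.91, and the 4 with Xist are too few for a value. These were the strongest of the 45 pairs computed, and after adjustment over those pairs neither passed (adjusted p = 0.0983 for r and 0.223 for rho, in both). For chains of one receptor, r was 0.56 for Ifnar1 and Ifnar2 (rho = 0.55, permutation p = 0.0965 and 0.106). For an alpha chain and its beta chain r was negative. It was -0.25 for Csf2ra and Csf2rb (permutation p = 0.502) and -0.46 for Il3ra and Csf2rb (permutation p = 0.182). With Il3ra and Csf2rb2 it was -0.18 (permutation p = 0.606). The beta chain genes Csf2rb and Csf2rb2, between which the split of reads is uncertain, had an r of 0.56 (rho = 0.42, permutation p = 0.0874 and 0.232). For Csf2rb and Csf2rb2 r was 0.20 without the 2 libraries farthest from the median of Csf2rb, and 0.59 in the 6 libraries with Ddx3y. For Il6ra and Il6st r was 0.40 (rho = 0.48, permutation p = 0.258 and 0.166). The permutations treat the 10 libraries as exchangeable, although replicates 1 and 5 of both groups hold Xist and the others Ddx3y.

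**Figure D4:**
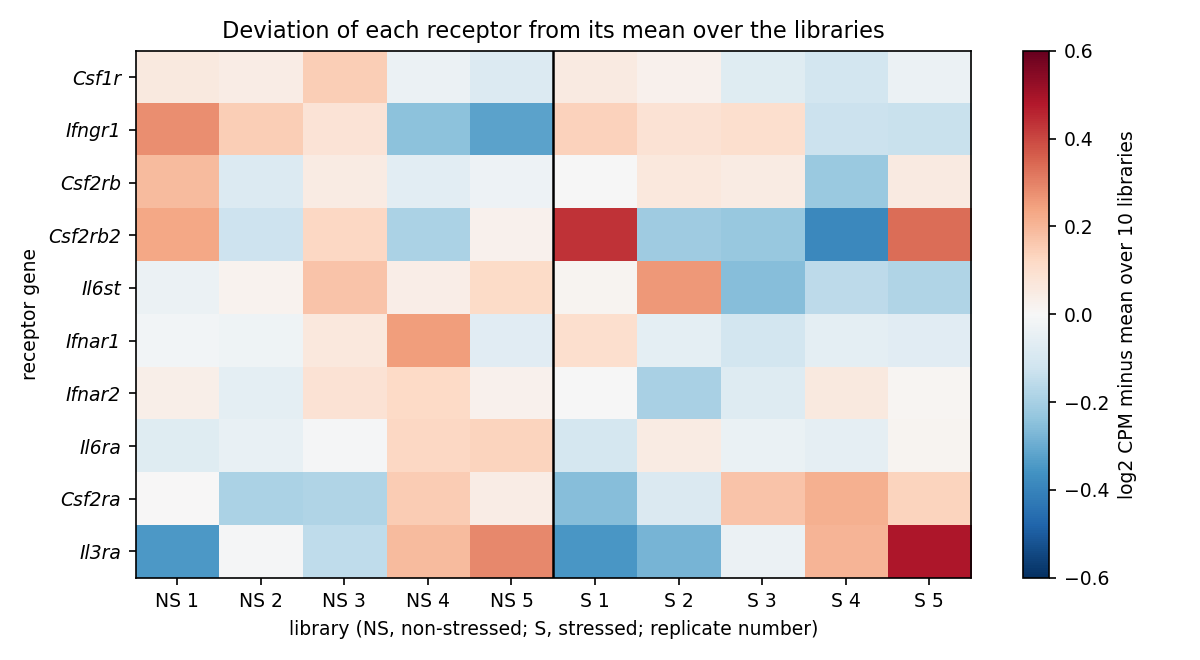
Deviation of log2 CPM of each receptor gene (rows) from its mean over the 10 libraries (columns); red is above and blue below the mean. Ifngr1 is below its mean and Il3ra above its own in replicates 4 and 5 of both groups, and Csf2rb2 is highest in stressed replicates 1 and 5.

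Markers of other cell types moved with the same libraries. Ifngr1 rose and fell with the summed level of 10 neutrophil markers, which was 1786, 913, 651, 213 and 214 CPM in non-stressed replicates 1 to 5 and 1075, 1410.3, 494, 509 and 395 CPM in stressed replicates 1 to 5. Both were highest in non-stressed replicate 1 and lowest in non-stressed replicates 4 and 5. On the log2 scale r was 0.91 (permutation p = 0.00023, rho = 0.84, permutation p = 0.00388), and 55th of the 13334 genes tested when these were ordered by their r with that list. Markers of the list itself were among the genes so ordered. Without the 2 libraries farthest from the median of Ifngr1 r was 0.80, and in the 6 libraries with Ddx3y it was also 0.80. Of the 10 markers, S100a8, S100a9, Mmp9, Cxcr2 and Retnlg each had an r of 0.89 to 0.93 with Ifngr1, and Mmp8, Camp and Ltf at most 0.25. All 10 neutrophil markers were detected in some library. The adjusted p over the 110 pairs of a receptor and a marker list was 0.0126 for r and 0.125 for rho.

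Il3ra moved with the summed level of 6 plasmacytoid dendritic cell markers, which ran from 211 to 315 CPM, with an r of 0.96 (permutation p = 1e-05, the smallest these permutations can give; rho = 0.98, permutation p = 2e-05; adjusted p over 110 pairs 0.0011 and 0.0022). It ranked 5 of 13334 genes by that measure, among them markers of the list itself. Without the 2 libraries farthest from the median of Il3ra r was 0.96, and in the 6 libraries with Ddx3y it was 0.91. Nearly all of that list's level came from Bst2 (87.1 to 170 CPM) and Tcf4 (99.1 to 143 CPM), which other cells express as well, and whose r with Il3ra was 0.91 and 0.86. Siglech, the defining marker of the list, was counted at 0.243 to 3.58 CPM and had an r of -0.53. Markers of basophils, mast cells and eosinophils, which also carry the interleukin 3 receptor, summed to 1.49 to 16.5 CPM, with Prg2 and Epx at 0 throughout. The endothelial list, led by Pecam1 and Vwf, had an r of -0.90 with Il3ra (permutation p = 0.00068, adjusted p = 0.0249) and 0.88 with Ifngr1 (permutation p = 0.0018, adjusted p = 0.0495), and rho of -0.72 and 0.73 with adjusted p = 0.185 for both. No other pair had an adjusted p under 0.05 for r. The monocyte and macrophage list, the largest by summed CPM, had an r of -0.84 with Ifngr1 and 0.78 with Il3ra (permutation, adjusted p = 0.0586 and 0.0841). The neutrophil list had -0.83 with Il3ra, and the plasmacytoid dendritic cell list -0.84 with Ifngr1 (permutation, adjusted p = 0.0586 for both). Each of these receptors thus varied with several lists. The permutations treated the libraries as exchangeable here too, although libraries of the same number in part resembled each other. The p-values with marker lists may therefore be too small, and these correlations were added after the data had been seen. The part of these cell types in the receptor levels was not tested.

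**Figure D5:**
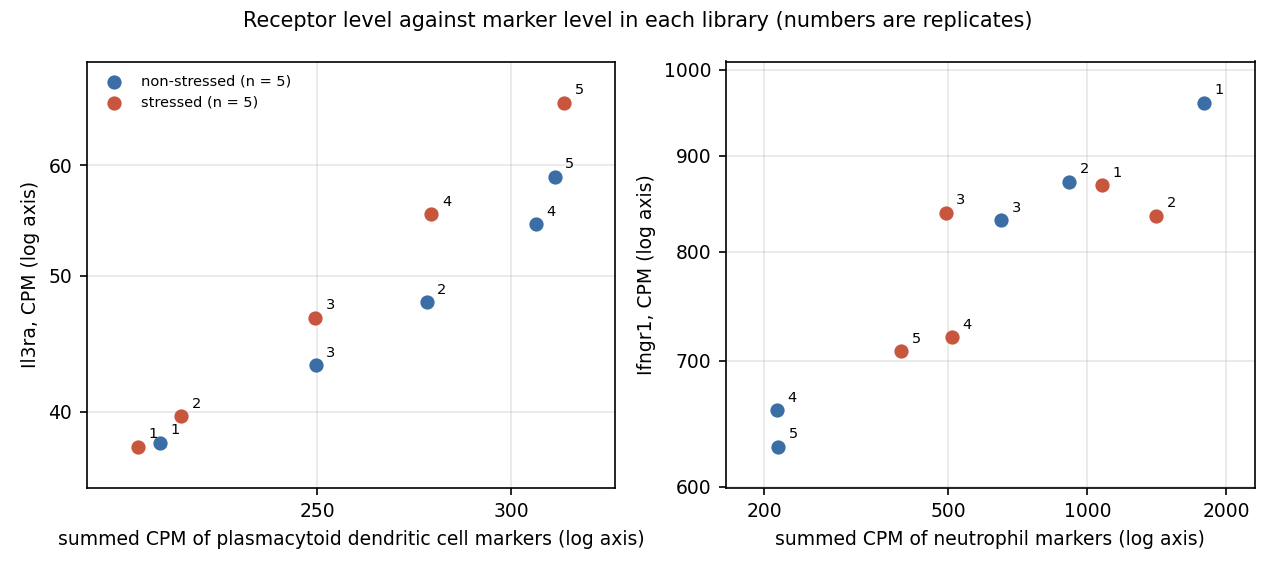
Left, Il3ra in CPM against the summed CPM of 6 plasmacytoid dendritic cell markers, nearly all of it from Bst2 and Tcf4; right, Ifngr1 in CPM against the summed CPM of 10 neutrophil markers (log axes, points are libraries with replicate numbers). Both pairs rise together across the groups, with r of 0.96 and 0.91 on the log2 scale.

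The genes whose log2 CPM was most like that of a receptor over the 10 libraries were found by Pearson r among the genes tested. Predicted genes (Gm and Rik names), pseudogenes and identifiers without a symbol were left out. For Csf1r they were Bcl6, a transcriptional repressor (r = 0.94), and Plek (0.93). For Csf2ra they were Tyrobp, an adaptor of myeloid receptors (0.96), and Rara, the retinoic acid receptor alpha (0.95). Csf2rb lay nearest to B3gnt9 and Togaram1 (0.91 for both), and Csf2rb2 to Vamp7 (0.94) and Rpe (0.90). Il3ra was nearest to Dhx58, an interferon-inducible RNA sensor (0.97), and Pdia6 (0.96), and Ifngr1 to Slc44a2 (0.97) and Rap1b, a small GTPase (0.96). Il6ra was nearest to Serpinc1 (0.93) and Armc9 (0.91), and Il6st to Serpinb9, an inhibitor of granzyme B (0.97), and Klhl42 (0.93). The likeness was weakest for Ifnar1, with Hdhd2 (0.86) and Sept10 (0.85), while Ifnar2 was nearest to Gnas, the stimulatory G protein alpha subunit (0.95), and Vps25 (0.90). Each is the highest or second highest value over the other genes so kept and describes these libraries only.

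The other genes of these pathways were taken from lists of ligands, other receptors, signalling proteins, inhibitors, shedding enzymes, target genes and regulators. Of 113 genes, 97 were tested and 0 passed the threshold in either direction, in edgeR and likewise in DESeq2 and limma-voom. At an unadjusted p under 0.05 there were 11 of 97 (6 lower and 5 higher in the stressed libraries), beside 5.53% of all genes tested (edgeR). The median log2 fold change of the 97 was -0.03, beside 0.004 over all genes.

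Of the 10 ligands, Csf1 alone was tested. It stood at 7.62 to 31.7 CPM, highest in stressed replicate 2, and its log2 fold change was 0.29 (SE 0.30, adjusted p = 0.961), which became -0.07 without that library. Il34, the other ligand of the CSF1 receptor, and the genes of GM-CSF (Csf2), interleukin 3, interleukin 5, interferon beta (Ifnb1) and an interferon alpha (Ifna4) had 0 reads in all libraries. Il6 had 38 reads, Ifng 57 and Csf3 13 over the 10 libraries together. For 6 of the 10 ligands, then, no transcript was detectable at this depth in libraries in which all 10 receptors were counted.

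Among 26 other cytokine and growth factor receptors, 23 were tested, 12 with a fold above 1 and 11 below, and the median was 0.03. Csf3r, the G-CSF receptor, stood at 578 to 969 CPM and Il17ra, an interleukin 17 receptor chain, at 989 to 1103 CPM. The smallest p belonged to Flt3, the receptor kinase of dendritic cell and progenitor growth, at 0.45 on the log2 scale (SE 0.17, adjusted p = 0.874). Tnfrsf1b, a TNF receptor, had -0.15 (SE 0.08, adjusted p = 0.940) and Tgfbr2, a TGF beta receptor chain, -0.25 (SE 0.15, adjusted p = 0.940).

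All 11 JAK and STAT genes were tested, 4 with a fold above 1 and 7 below, with a median of -0.06. Stat5a, which transmits GM-CSF and interleukin 3 signals, stood at 91.0 to 110 CPM in the non-stressed and at 80.0 to 89.1 CPM in the stressed libraries. Its groups did not overlap, which was so for 1.11% of all genes, and its log2 fold change was -0.19 (SE 0.08, adjusted p = 0.874). Jak2, the kinase bound to the beta chains, had -0.19 (SE 0.09, adjusted p = 0.886).

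Of 19 genes that act downstream of the CSF1 receptor and related kinases, all were tested, 11 with a fold above 1 and 8 below, with a median of 0.01. Dok1, an adaptor that dampens kinase signals, stood at 77.3 to 86.3 CPM in the non-stressed and 88.2 to 96.6 CPM in the stressed libraries. These groups did not overlap either, and the value was 0.18 on the log2 scale (SE 0.07, adjusted p = 0.874). Sos1, the exchange factor that activates Ras, had -0.29 (SE 0.11, adjusted p = 0.874), and Inpp5d, the phosphatase SHIP1, -0.11 (SE 0.07, adjusted p = 0.940).

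Of the inhibitors 17 of 19 were tested, with 0 at an unadjusted p under 0.05 and a median of -0.04. The smallest p values were those of Usp18, which blocks Ifnar2 signalling, at -0.37 (SE 0.17), and of the feedback inhibitors Socs1 at -0.47 (SE 0.26) and Socs3 at 0.45 (SE 0.31). Socs3 was at 0.84 without non-stressed replicate 1 and at 0.24 without stressed replicate 2. Of the enzymes that release receptors from the cell surface and their partners, 4 of 5 were tested and all 4 had a fold below 1. Adam17, the protease that sheds the CSF1 receptor and Il6ra, was counted at 269.97, 250.3, 256, 251 and 229.95 CPM in non-stressed replicates 1 to 5 and at 232, 238, 185, 207 and 206 CPM in stressed replicates 1 to 5. Non-stressed replicate 5 lay just below stressed replicates 1 and 2, and all other non-stressed libraries lay above the stressed ones. That gave a log2 fold change of -0.23 (SE 0.08, 95% interval -0.40 to -0.06, adjusted p = 0.829). Adam10 and Rhbdf2 were at -0.05 (SE 0.09) and -0.04 (SE 0.08).

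Of 17 genes that STAT factors induce, 16 were tested, 4 with a fold above 1 and 12 below, with a median of -0.15. Pim1, a kinase gene that STAT5 induces, had 0.61 (SE 0.21, adjusted p = 0.836), and Junb 0.45 (SE 0.20, adjusted p = 0.874). Both were highest in stressed replicate 3, at 429 and 1445 CPM, and without that library their values were 0.36 and 0.16. Ifit3, an interferon-induced antiviral gene, stood at -0.53 (SE 0.24, adjusted p = 0.882). Of the 6 transcription factors that control these receptor genes in myeloid cells, 5 had a fold above 1. The smallest p values were those of Cebpb at 0.22 (SE 0.11), Cebpa at 0.32 (SE 0.17) and Klf4 at 0.08 (SE 0.07).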

How the data were processed

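The deposited values are read counts of each gene without normalization, which the authors made with Trimmomatic, STAR and featureCounts on mm10, per the submitters' processing notes. The sources used here do not give versions, annotation, read length or strand setting. A PicoPure kit served for RNA and a TruSeq Stranded kit for libraries, per the labels' protocols. Of 48526 identifiers, 48144 matched GENCODE M21, and the other 382, with at most 0.0344% of a library's reads, were kept. Groups and replicate numbers come from the sample titles. Within a group no library duplicated another (chi-square per degree of freedom 21.1 to 64.8). The members and all lists were chosen with earlier results of these data known.

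The test was that of edgeR 4.0.16, run in R 4.3.3 (filterByExpr with a minimum count of 10, TMM factors of 0.990 to 1.007, intercept and group, quasi-likelihood F test, Benjamini-Hochberg adjustment over 13334 genes holding 99.9% of reads, threshold 0.05). CPM uses total counts. The limit for 0 reads (3 counts) covers counting error only. On simulated counts for the stressed against non-stressed comparison over 13334 genes, the fit recovered 41.8%, 52.2% and 69.7% of 67, 67 and 66 genes changed 1.5-, 2- and 4-fold and made 11 false calls. Chain ratios used log2 of counts with 0.5 added and an exact permutation test over samples. Correlations used log2 CPM with TMM factors and 100000 permutations (scipy 1.17.1), and those with marker lists were added after the data had been seen. Transcripts were aligned with Biopython 1.88. Named genes are the 10 members, the up to 3 genes of each list with the smallest p, the 2 genes most like each member, leaving out predicted genes and pseudogenes, and marker genes needed to describe a list (1 gene that this rule takes is not reported here); Ifngr2, Il10rb, Csf3r, Il17ra, Hmgxb3, the undetected ligands and the marker genes singled out were named after their values were seen. Alternatives were RLE and upper-quartile factors, no filter, a filter of 1 CPM in 5 libraries, a threshold of 0.1, a robust dispersion, Ddx3y reads as a covariate, the replicate number as a block, a fit without haemoglobin, mitochondrial and ribosomal protein genes, 1 surrogate variable (sva 3.50.0), DESeq2 1.42.0, limma-voom with quality weights (limma 3.58.1), and leaving out each library in turn.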

Additional observations from a re-analysis of the deposited data

Results flagged for a closer look

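Csf2rb stood at 414 CPM in stressed replicate 4, the lowest stressed library, set apart from the other 4 by more than Dixon's test allows at 95%. Ifnar1 stood at 229.5 CPM in stressed replicate 1, the highest stressed library, set apart in the same way. Over 34 such tests of receptor levels and chain ratios these were the 2 that stood out, and chance alone gives about 1 in 20.

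Csf2rb2 was higher in stressed than in non-stressed libraries by 0.26 on the log2 scale among the 4 libraries with Xist and lower, at -0.21, among the 6 with over 100 reads of Ddx3y, with every library of each set on its side. How common such a pattern is among all genes tested was not counted. The difference between the sets was tested in edgeR and was not past the threshold (adjusted p = 0.999997, unadjusted p = 0.0250).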

How the results depend on the processing

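Over 22 alternatives the count of receptors past the threshold was 0 in each, and likewise the count of pathway genes. Of 220 receptor values 20 changed sign, 0 had an adjusted p under 0.05, and the lowest adjusted p was 0.582. Csf1r, Csf2ra, Il6ra, Il6st, Ifnar1 and Ifnar2 kept their sign in all 22, but with 1 library left out their values ran from -0.086 to -0.030, 0.024 to 0.14, -0.084 to -0.029, -0.21 to -0.067, -0.12 to -0.028 and -0.11 to -0.050. Csf2rb2 had a log2 fold change of -0.00011 with upper-quartile factors, -0.029 with Ddx3y as a covariate, -0.026 with 1 surrogate variable and -0.11 with limma-voom, where Rhbdf2 was at 0.0040. Leaving out 1 library at a time gave log2 fold changes from -0.052 to 0.021 for Csf2rb, -0.12 to 0.088 for Csf2rb2, -0.11 to 0.11 for Il3ra, -0.065 to 0.083 for Ifngr1, -0.071 to 0.45 for Csf1, -0.076 to 0.013 for Rhbdf2 and -0.12 to 0.016 for Adam10. Jak2 was at -0.12 without non-stressed replicate 2, Tgfbr2 at -0.16 without non-stressed replicate 1, Cebpb at 0.13 without stressed replicate 3, Cebpa at 0.18 without stressed replicate 2 and 0.50 without non-stressed replicate 4, and Klf4 at 0.04 without stressed replicate 4 and 0.12 without stressed replicate 2. Log2 differences of ratios then ran from -0.0045 to 0.17 for Csf2ra to Csf2rb, -0.11 to 0.068 for Csf2rb2 to Csf2rb, -0.095 to 0.13 for Il3ra to Csf2rb, -0.031 to 0.036 for Ifnar1 to Ifnar2 and -0.12 to 0.11 for Ifngr1 to Ifngr2. The cause of these changes was not tested.

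Of all genes, 1 passed in edgeR, 10 without a low-count filter (23259 genes tested), 19 with DESeq2 (14715 tested), 2 with limma-voom, and 1 to 2 with a library left out (2 without non-stressed replicate 5); the receptors were not among them. With the replicate number as a block 4 passed and Csf2rb2 was at -0.024; no receptor was called. The labels tie the numbers to no shared animal or day. Deviations of same-numbered libraries correlated at 0.13, 0.16, -0.03, 0.12 and 0.12, so 4 of 5 numbers but not number 3 passed 0.1, and 7 of 10 libraries correlated best with their own number, a hint from the data and not from the design. The block lowered the SE from 0.16 to 0.10 for Il3ra and from 0.11 to 0.062 for Ifngr1. On simulated counts 41.8% of 1.5-fold and 69.7% of 4-fold changes were recovered, in genes drawn at random from all 13334 tested. Changes of these sizes could thus be missed in some genes. Among the receptors the widest 95% interval, that of Il3ra, ran from 0.80- to 1.30-fold.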
